A study of Mus musculus with 12 samples.

Results

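Genes of antibodies and of the B cell surface, 9 of the 43686 rows of a gene count table, were followed in the ventricular wall of mouse hearts. They were taken by symbol and comprised 4 heavy chain constant genes (Igha, Ighg2c, Ighm and Ighd), the kappa light chain constant gene Igkc, the joining chain gene Jchain, and the B cell surface genes Cd79a, Cd79b and Ms4a1. The genes were selected with their counts in the 2 genotypes already known, so their difference between genotypes is described below without a test. RNA was sequenced from 6 WT hearts (littermates with floxed alleles, Sdhaf4 fl/fl, and no Cre) and from 6 KO hearts (Sdhaf4 fl/fl with the Ckmm-Cre transgene), in mice that the labels call C57BL/6 and the study's methods C57BL/6J. The muscle creatine kinase promoter that drives this Cre is active in cardiac and skeletal muscle and is not a B cell promoter. Sdhaf4, an assembly factor of mitochondrial complex II, was floxed in every mouse of both groups. The labels give an age of 2 months and call the mutants Sdhaf4-/- without naming the Cre. The main text of the study gives a younger age for the RNA sequencing. Its reporting summary states male mice for omics work, at a younger age or at an age close to that of the labels.

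The libraries held 23747014 to 27159228 counts in WT and 26542930 to 31393393 in KO. The deleted gene, Sdhaf4, lay between 14.3 and 30.3 CPM, counts scaled to library size, in the 6 WT libraries and between 2.25 and 2.73 CPM in the 6 KO libraries. Cardiomyocyte genes were abundant in every library, with Myh6, the heavy chain of cardiac myosin, between 12502 and 18628 CPM. Libraries KO3 and KO6 stood apart from the other KO libraries: their median chi-square per degree of freedom against the others of their genotype was 42.8 and 41.1, compared with 14.2 to 17.1 for the other 4. All CPM values were scaled by edgeR's TMM factors. Of the 17155 rows that passed the filter on low counts, 25.6% were higher and 25.5% lower in KO at an adjusted p under 0.05, and the median log2 fold change over all of them was 0.002.

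An antibody is built of heavy and light chains. A B cell first displays IgM and IgD, whose constant parts (Ighm and Ighd) are spliced from the same primary transcript, together with the signaling partners CD79A and CD79B, and many B cells also carry CD20, the product of Ms4a1. After class switching, DNA between the variable segments and a downstream constant gene is removed and the cell makes IgG or IgA instead. Plasma cells secrete antibody in bulk and lose much of the B cell surface program, so a plasma cell holds far more immunoglobulin mRNA than a resting B cell. In whole tissue, fewer cells of a type and less RNA per cell cannot be told apart.

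The J chain joins antibodies into polymers through a cysteine next to the end of the secreted IgA and IgM heavy chains. The last 60 coding bases of the secreted forms are shown because they separate the classes that can carry J chain from the IgG class, with the codon before the last one in capitals; they were read from GENCODE M21 transcripts on GRCm38, minus strand, a build other than that of the counts.
Igha, chr12:113258768-113258827: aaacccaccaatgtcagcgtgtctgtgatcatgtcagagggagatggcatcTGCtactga
Ighm, chr12:113420867-113420926: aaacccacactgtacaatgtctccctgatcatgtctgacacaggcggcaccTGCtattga
Ighg2c, chr12:113287389-113287448: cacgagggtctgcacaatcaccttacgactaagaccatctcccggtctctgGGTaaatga
The capital codon encodes cysteine in Igha and Ighm and does not in Ighg2c.

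Igha, the constant gene of IgA (MGP_C57BL6NJ_G0000003, C57BL/6NJ assembly, chromosome 12, 119304270 to 119309673, minus strand), was the switched class with the most counts. Its level was lowest at 0.688 CPM, had a median of 1.45 and reached 2.49 CPM in WT, and it was lowest at 3.41, had a median of 5.92 and reached 7.50 CPM in KO. Every KO library lay above every WT library, which was the case for 14.9% of all rows tested; since the gene was selected on this contrast, nothing is read from that share. The counts behind these levels were 17 to 69 per WT library and 103 to 208 per KO library, and the fitted log2 fold change was 1.83 ± 0.26 (SE, n = 6 and 6), or 3.56-fold.

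Ighg2c, the IgG2c constant gene that C57BL/6 mice carry in place of Ighg2a (chromosome 12, 119337741 to 119341348), had the largest fold difference of the 9 genes. Its level was 0.081 CPM at the lowest, 0.561 at the median and 1.10 at the highest in WT, and 1.99, 2.68 and 3.23 CPM in KO. The groups did not overlap, and the log2 fold change was 2.24 ± 0.34 (SE, n = 6 and 6). Of the 50-base windows of its transcripts, 5.49% were also present in transcripts of Ighg2b, so a small part of its reads could be split with that gene. Ighg2b itself had 19 counts over the 6 WT libraries and 83 over the 6 KO libraries and failed the filter on low counts.

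Ighm, the µ chain of IgM (chromosome 12, 119469403 to 119473561), went the other way. Its level was 8.01 CPM at the lowest, 13.5 at the median and 15.2 at the highest in WT, and 2.98, 5.82 and 7.08 CPM in KO. Every KO library lay below every WT library, as in 15.2% of all rows tested, and nothing is read from this share either. The log2 fold change was -1.17 ± 0.19 (SE, n = 6 and 6), and without KO3, the lowest KO library, it was -1.05.

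Ighd, the δ chain of IgD (chromosome 12, 119456609 to 119466174), overlapped between the genotypes. It ranged from 0.393 to 0.931 CPM in WT with a median of 0.696, and from 0.257 to 2.14 CPM in KO with a median of 0.672. The highest value was that of KO2, with 57 counts, and the lowest that of KO1, with 8. Its log2 fold change was 0.40 ± 0.41 (SE, n = 6 and 6), and it ranged from -0.03 to 0.60 when each library was left out in turn, so no direction can be given. Ighm and Ighd did not show the same difference, although a resting B cell makes both from the same primary transcript.

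Igkc, the constant part of the kappa light chain (chromosome 6, 73027106 to 73027637, plus strand), pairs with every heavy chain class. Its level was 1.44 CPM at the lowest, 1.82 at the median and 2.49 at the highest in WT, and 2.15, 3.76 and 5.37 CPM in KO. Only KO3 lay within the WT range, and the log2 fold change was 1.03 ± 0.22 (SE, n = 6 and 6). Without KO3 the groups did not overlap and the log2 fold change was 1.15. An unnamed row on the same strand overlaps Igkc in the annotation. Some reads of Igkc may thus not have been counted, so its level relative to other genes may be too low.

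Jchain (chromosome 5, 93157653 to 93167143, minus strand) was 0.275 CPM at the lowest, 0.311 at the median and 0.795 at the highest in WT, and 0.563, 1.59 and 2.13 CPM in KO. WT2 stood above the other WT libraries, which ended at 0.382 CPM, and it overlapped only with KO3. The log2 fold change was 1.90 ± 0.35 (SE, n = 6 and 6), and 2.06 without KO3. By log2 fold change, Jchain stood higher in KO, as did Igha, Ighg2c and Igkc, while Ighm stood lower. Igha and Ighm carry the cysteine codon shown above and Ighg2c does not. The genes were selected on this contrast, so no link of Jchain to a class is read from it. When each library was left out in turn, KO3 and KO6 included, log2 fold changes ran from 1.68 to 2.01 for Igha, from 2.01 to 2.52 for Ighg2c, from 0.91 to 1.15 for Igkc, from 1.77 to 2.24 for Jchain and from -1.28 to -1.05 for Ighm.

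**Figure D1:**
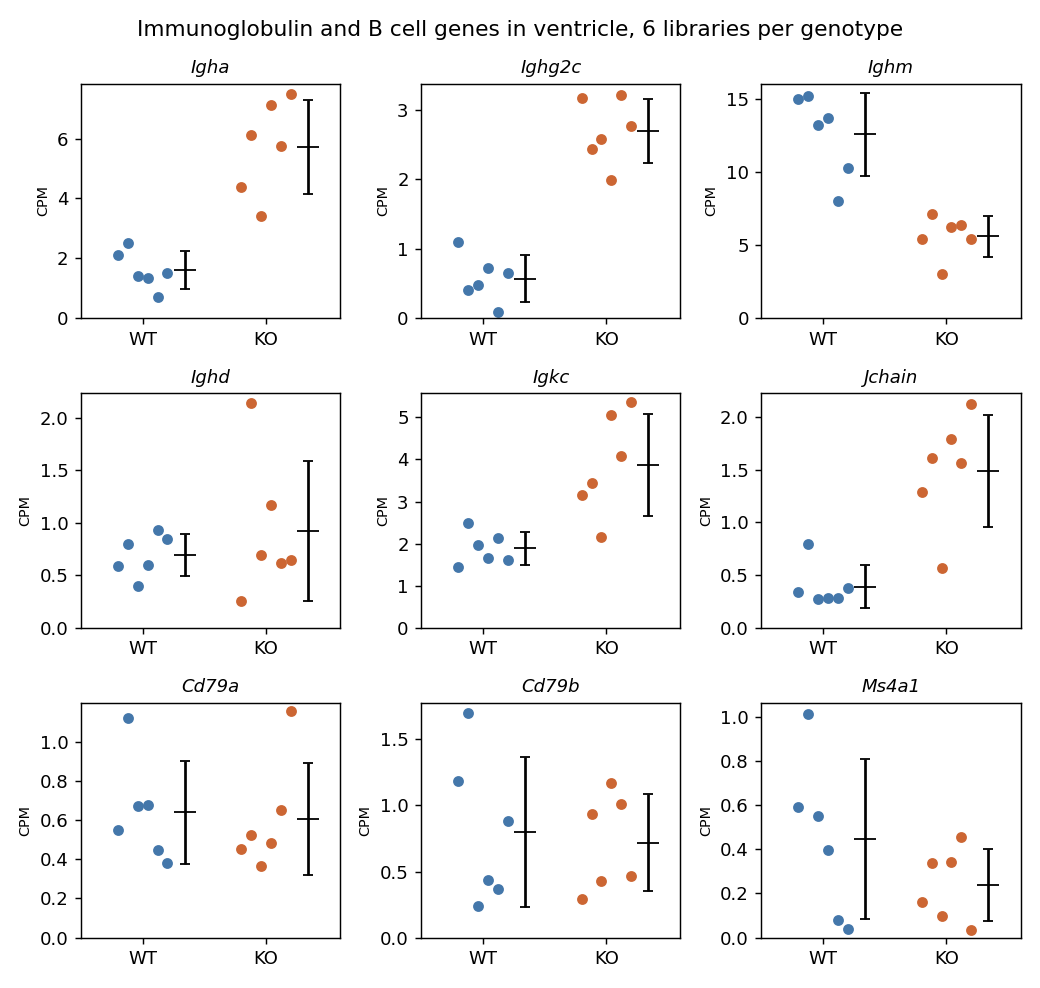
Level of each of the 9 genes in CPM (linear axes from 0) by genotype; each point is 1 library and the bar beside the points is the mean ± SD (n = 6). Igha and Ighg2c lie higher and Ighm lower in every KO library than in every WT library, while Ighd, Cd79a, Cd79b and Ms4a1 overlap.

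The B cell surface genes overlapped between the genotypes. Cd79a, which carries the signal of the B cell receptor (chromosome 7, 24081439 to 24086379), ranged from 0.382 to 1.12 CPM in WT with a median of 0.609, and from 0.364 to 1.15 CPM in KO with a median of 0.503. The highest KO value was that of KO6, and the other KO libraries ended at 0.652 CPM. Its log2 fold change was -0.09 ± 0.35 (SE, n = 6 and 6). Of the 50-base windows of its transcripts, 8.31% were shared with the predicted gene Gm32220.

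Cd79b, the partner of Cd79a in the receptor (chromosome 11, 112954881 to 112958302), ranged from 0.236 to 1.70 CPM in WT and from 0.289 to 1.17 CPM in KO, with medians of 0.658 and 0.703. Its log2 fold change was -0.16 ± 0.46 (SE, n = 6 and 6) and lay between -0.36 and 0.21 when each library was left out in turn. Ms4a1, the CD20 gene (chromosome 19, 9020807 to 9039416), had 111 counts over all 12 libraries, from 1 to 28 in WT and from 1 to 14 in KO, and was the member that failed the filter on low counts. In a fit of all rows with a count its log2 fold change was -0.89 ± 0.61 (SE, n = 6 and 6). An unnamed row on the other strand overlaps Ms4a1. These 3 genes rest on 1 to 47 counts per library, and the standard errors of 0.35 to 0.61 on the log2 scale set how small a difference could be seen.

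The 4 heavy chain constant genes lie in the same locus (chromosome 12, 119304270 to 119473561), and their counts were also set as shares of all heavy chain constant counts, of which there were 248 to 524 per WT library and 323 to 505 per KO library. These totals overlapped, as did the share of Ighd (2.52% to 9.27% in WT, 1.90% to 11.8% in KO), and the shares of Ighm, Igha and the IgG genes did not. Ighm took 76.1% to 84.6% of the heavy chain counts in WT, with a median of 80.0%, and 27.9% to 40.1% in KO, with a median of 37.3%. Igha took 6.85% (95% Wilson interval 4.32% to 10.7%, WT5) to 13.2% (10.5% to 16.3%, WT2) in WT and 31.9% (27.0% to 37.2%, KO3) to 45.2% (40.7% to 49.8%, KO6) in KO. The IgG genes together took 2.48% to 6.64% in WT and 15.1% to 33.7% in KO. Counts of Igha and IgG per count of Ighm were 0.136 to 0.231 in WT and 1.25 to 2.36 in KO. These intervals cover counting error only, and the shares are made from the same contrast that selected the genes.

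**Figure D2:**
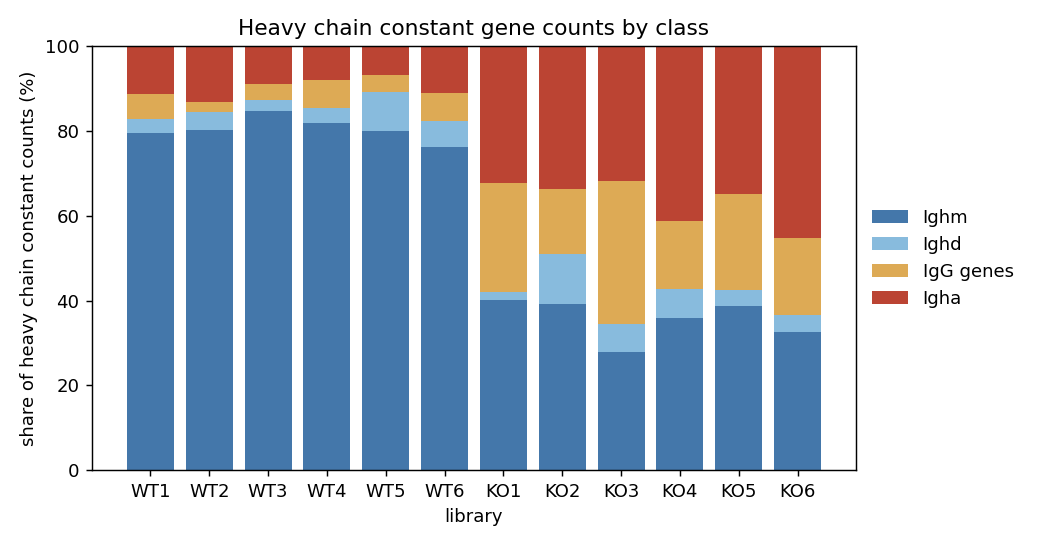
Share of the heavy chain constant counts (%) taken by Ighm, Ighd, the IgG genes and Igha in each of the 12 libraries; each bar is 1 library and sums to 100%. Ighm takes 76.1% to 84.6% of every WT bar and 27.9% to 40.1% of every KO bar.

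KO3 and KO6, the KO libraries that stood apart over all genes, did not sit together in these shares. KO3 had the largest share of IgG genes, 33.7%, and the smallest share of Igha among KO libraries, whereas KO6 had the largest share of Igha. The other constant genes were nearly silent. Ighg1 had 21 counts and Ighg3 had 1 count over all libraries, Ighe and Iglc4 were at 0, and the lambda genes Iglc1, Iglc2 and Iglc3 had 68, 51 and 36 counts. Igkc took 69.4% to 93.3% of the light chain constant counts in WT and 81.7% to 92.5% in KO, so this share overlapped, like that of Ighd among the heavy chains.

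Levels were compared between genes on the authors' FPKM, which divides counts by a gene length. The length that these values imply was 532 bases for Igkc and 1457 bases for Cd79a, as in the table's length column, but it was 1820 against 2540 bases for Igha and 1044 against 1806 bases for Ighd, so the order depends on which length is used. In WT, Ighm was first with a median of 8.27 FPKM (4.88 to 9.63), above Igkc at 3.37 FPKM (2.69 to 4.78), with no overlap, and Igkc was above Igha at 0.804 FPKM (0.369 to 1.40), again with no overlap. From Igha downward each gene overlapped with the next, and Jchain and Ms4a1 came last at 0.164 and 0.163 FPKM. In KO, Igkc was first with a median of 7.13 FPKM (3.89 to 9.84), followed by Ighm at 3.71, Igha at 3.28 and Ighg2c at 2.23 FPKM. Neighbours among these 4 overlapped, although Igkc was above Ighm in each KO library, and Ighg2c lay apart from Jchain at 0.858 FPKM. The level of Ighm per level of Igkc in FPKM was 1.24 to 3.46 in WT and 0.333 to 0.681 in KO.

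**Figure D3:**
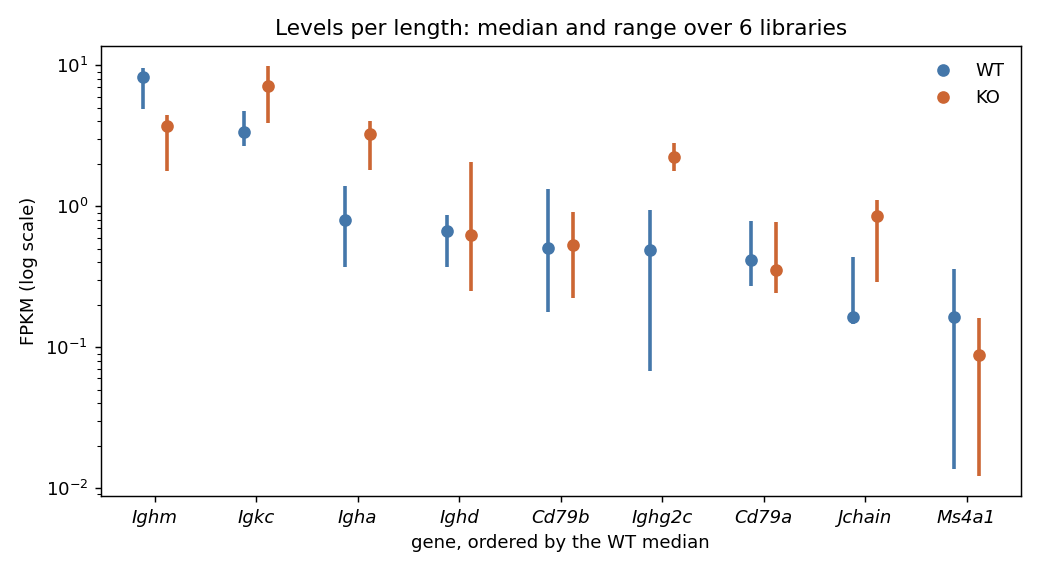
Level per length of the 9 genes in FPKM on a log axis, ordered by the WT median; points are medians and lines run from the lowest to the highest of 6 libraries. Ighm (8.27 FPKM) leads in WT and Igkc (7.13 FPKM) leads in KO.

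Antibody mRNA also covers rearranged variable (V) and joining (J) segments, whose rows are not among the 9 genes. Of 181 segment rows, 86 had at least 1 count and none passed the filter on low counts. V segments together lay between 0.497 and 1.08 CPM in WT, with a median of 0.784, and between 1.29 and 2.99 CPM in KO, with a median of 1.72. Kappa V segments were 0.199 to 0.650 CPM in WT and 0.815 to 1.46 CPM in KO, without overlap, and heavy V segments were 0.038 to 0.434 CPM and 0.424 to 1.51 CPM. Heavy chain J segments were not higher in KO, with 0.197 to 0.759 CPM in WT and 0.065 to 0.450 CPM in KO. Reads of a V segment come from the same transcripts as those of the constant genes, so these values are not independent of them.

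Over all libraries together, Ighv9-3 had 32 counts in all, 11 in WT and 21 in KO, Igkv10-96 had 31, 11 in WT and 20 in KO, and the joining segment Ighj4 had 30, of which 22 were in WT and 8 in KO. The number of V segment rows with a count was 7 to 20 per WT library and 17 to 31 per KO library. This number rises with the counts sampled, which were 117 over the WT libraries and 330 over the KO libraries, so it does not measure diversity.

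Variation between hearts of the same genotype was not used to select the genes, and 6 pairs were examined in each genotype, 12 relations in all, on log2 CPM with exact two-sided permutation tests. In KO, Igha and Jchain varied together, with r = 0.94 (exact permutation p = 0.0014, adjusted p = 0.0167) and rho = 1.0 (p = 0.0028, adjusted p = 0.0333) over 6 libraries. Without the 2 libraries farthest from the median of Igha, r was 0.93. Igha and Igkc gave r = 0.96 (exact permutation p = 0.0042, adjusted p = 0.025) and rho = 0.94 (p = 0.0167, adjusted p = 0.1) over the 6 KO libraries, and r = 0.85 without the 2 libraries farthest from the median of Igha. Leaving out each KO library in turn kept r between 0.93 and 0.99 for Jchain and between 0.89 and 0.99 for Igkc, while the adjusted p, now over 5 libraries in KO, was 0.05 to 0.0667 for Jchain and 0.05 to 0.125 for Igkc.

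In WT the same pairs gave r = 0.67 for Igha with Jchain (exact permutation p = 0.186, adjusted p = 0.269; rho = 0.71) and r = -0.08 for Igha with Igkc (p = 0.885, adjusted p = 0.885; rho = -0.09), at 7 to 22 counts of Jchain per library. Whether the relations differ between the genotypes was not tested. Igha with Ighm gave r = 0.88 in WT (exact permutation p = 0.0139, adjusted p = 0.05; rho = 0.77), which fell to 0.46 without the 2 farthest libraries, so it rests on those libraries. Igha with Ighm gave r = 0.76 in KO (exact permutation p = 0.0722, adjusted p = 0.173; rho = 0.26), and this became -0.74 without the 2 farthest libraries. Cd79a with Ms4a1 gave r = 0.88 in WT (exact permutation p = 0.0167, adjusted p = 0.05; rho = 0.77) and 0.78 without the 2 farthest libraries. In KO the same pair gave r = -0.36 (exact permutation p = 0.526, adjusted p = 0.574; rho = 0.09), and 0.92 without KO6. Cd79a with Ighm gave r = 0.72 in WT and 0.37 in KO, Cd79a with Igha 0.60 and 0.72, and none of these 4 relations passed (adjusted p from 0.198 to 0.463 by the exact permutation test).

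**Figure D4:**
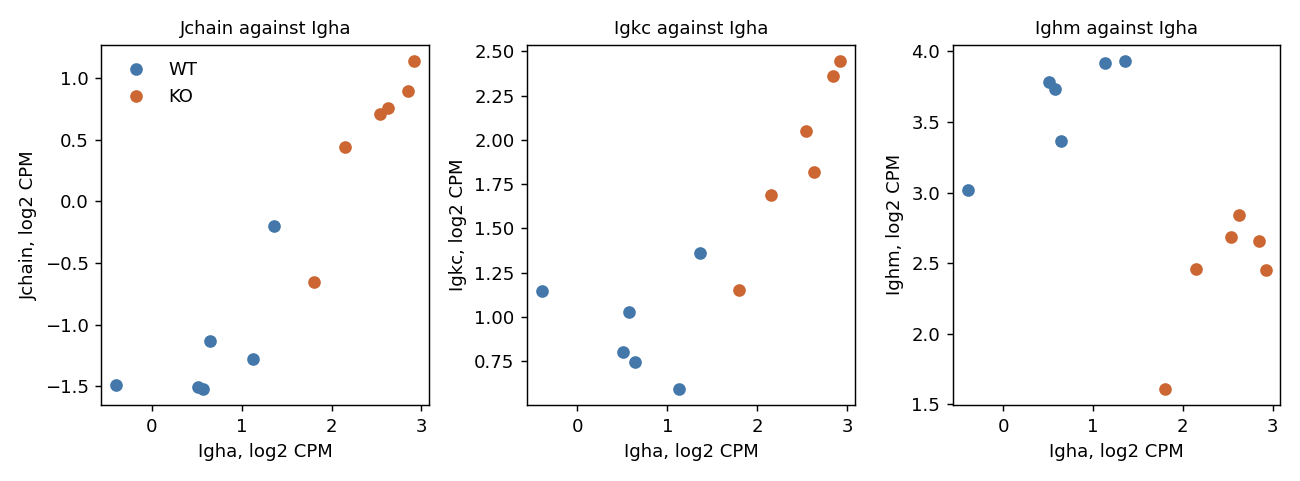
Jchain, Igkc and Ighm against Igha on log2 CPM; each point is 1 library of WT or KO. Within KO, Jchain (r = 0.94) and Igkc (r = 0.96) rise with Igha.

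The genes most like the antibody genes were sought among 11944 annotated genes over the 12 libraries after the mean of each genotype was subtracted. For the mean of Igha, Igkc and Jchain, the highest Pearson r belonged to Tbx2 (0.96), Zfp324 (0.93), Pde8a (0.90), Casp2 (0.89) and Mex3d (0.88), none of which is on the lymphocyte lists used here. For the mean of Cd79a, Cd79b, Ms4a1 and Ighd, it belonged to Zfp930 (0.91), Pdp1 (0.90), Spns2 (0.89), H2-Ob (0.88) and Pigm (0.85). H2-Ob, a class II antigen-loading regulator of B cells, is on the B cell list. These are the top values of many at low counts, and the libraries share depth and normalization, so they are given as a description.

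Other B cell surface and signaling genes were counted from a list of 21, of which 20 matched a row and 11 could be tested. In KO, 2 were higher and 2 were lower at an adjusted p under 0.05, where 25.6% and 25.5% of all rows were, and the median log2 fold change of the 11 was 0.04. Blk, a Src family kinase of the B cell receptor, lay between 0.040 and 0.381 CPM in WT and between 0.464 and 1.38 CPM in KO (log2 fold change 2.14 ± 0.40, adjusted p = 0.00024). Cd72, a coreceptor of B cells that some macrophages also carry, rose by 1.18 ± 0.25 on the log2 scale (adjusted p = 0.00086). Blnk, the adaptor that links the receptor to its downstream enzymes, fell by 1.27 ± 0.21 on the log2 scale and did not overlap between groups (2.37 to 4.01 CPM in WT, 0.829 to 1.79 in KO; adjusted p = 9.7e-05).

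Bank1, a B cell scaffold, fell by 1.37 ± 0.53 on the log2 scale with an adjusted p of 0.0406, which did not hold when 9 of the 12 libraries were left out one at a time. Cd22, an inhibitory coreceptor of B cells, gave a log2 fold change of 0.15 ± 0.37 (adjusted p = 0.763). The complement receptor Cr2, the IgE receptor Fcer2a, the IgM receptor Fcmr, and Fcrla, Fcrl1, Siglecg, Cxcr5, Ly6d and Vpreb3 failed the filter on low counts, with 12 to 106 counts each over all libraries. Counts in WT and KO were 51 and 19 for Fcer2a, 19 and 12 for Cr2 and 37 and 36 for Siglecg. They were 32 and 74 for Fcrla, 11 and 28 for Fcrl1, 20 and 32 for Fcmr and 24 and 27 for Cxcr5. Ly6d had 20 and 27, and Vpreb3 had 4 and 8. Cd79a and Cd79b were measurable at under 2 CPM in every library, with groups that overlapped.

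Among B cell transcription factors, Bcl11a fell by 0.51 ± 0.17 on the log2 scale (adjusted p = 0.0182), while Ebf1 (0.03 ± 0.10, adjusted p = 0.795) and Pou2af1 (0.63 ± 0.42, adjusted p = 0.227) did not pass the test. Ebf1 stood at 25.1 to 39.2 CPM, and it is also made outside the B lineage. Pax5, the factor that defines the lineage, had 82 counts in all and failed the filter. Of the precursor and germinal centre genes, none of the 8 matched rows could be tested. Rag1, Rag2 and Igll1, which serve antibody gene rearrangement and the precursor receptor, had 1 count each over all libraries.

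Plasma cell genes gave no common direction. Of 9 genes 7 could be tested, 1 was higher and 1 was lower, against 25.6% and 25.5% of all rows, and their median log2 fold change was 0.50; 2 were higher without WT5, without KO3 or without KO4. Sdc1, the CD138 surface marker that many epithelial and stromal cells also make, rose from 5.84 to 9.54 CPM in WT to 10.5 to 13.7 CPM in KO (log2 fold change 0.60 ± 0.11, adjusted p = 0.00023). Irf4, a factor needed for plasma cells and also made by other immune cells, fell by 1.17 ± 0.33 on the log2 scale (adjusted p = 0.0071). Mzb1, an endoplasmic reticulum protein that helps IgM assembly, was at -0.64 ± 0.38 (adjusted p = 0.17), and Prdm1 at -0.06 ± 0.31 (adjusted p = 0.897). Slamf7 was at 0.90 ± 0.53 (adjusted p = 0.168), Tent5c at 0.56 ± 0.24 (adjusted p = 0.0649) and Eaf2 at 0.50 ± 0.22 (adjusted p = 0.0658). The plasma cell receptor Tnfrsf17 failed the filter with 38 counts, 34 in WT and 4 in KO. Derl3 also failed it, with 29 counts in WT and 10 in KO.

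The secretory pathway list held 10 genes, all tested, of which 2 were higher and 2 were lower, near the 25.6% and 25.5% of all rows. Txndc5, a disulfide isomerase, rose by 0.76 ± 0.07 (adjusted p = 9.2e-08) and Edem1, which clears misfolded glycoproteins, by 0.45 ± 0.08 (adjusted p = 0.0002), both on the log2 scale and without overlap between groups. Fkbp11 fell by 1.32 ± 0.33 (adjusted p = 0.003) and Creld2 by 0.31 ± 0.11 (adjusted p = 0.0237), and Xbp1, the factor that drives this program, was at -0.10 ± 0.05 (adjusted p = 0.0919). These genes are active in many cells of the heart.

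Receptors that bind or carry antibody were measured as a list of 10, of which 7 could be tested, 1 was higher and 1 was lower, against 25.6% and 25.5% of all rows. Fcgrt, the neonatal Fc receptor that protects IgG from degradation, was at 103.6 to 116.1 CPM in WT and 69.5 to 80.2 CPM in KO, without overlap (log2 fold change -0.59 ± 0.05, adjusted p = 3.5e-08). Fcgr4, a receptor for IgG2 classes, rose by 1.33 ± 0.31 on the log2 scale (adjusted p = 0.0019). Fcgr1, Fcgr2b, Fcgr3, Fcer1g and Trim21 did not pass the test, although 2 genes of the list were higher without WT1 or without KO6. Pigr, which carries polymeric IgA and IgM across epithelia, had 4 counts in all, and Fcamr was at 0.

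Of 15 genes for signals that attract or keep B cells and plasma cells, 13 matched, 6 could be tested, 3 were higher and none was lower in KO by edgeR, against 25.6% and 25.5% of all rows; at an unadjusted p under 0.05, and by DESeq2, none of them was lower either. Vcam1, an adhesion molecule, rose by 0.78 ± 0.14 (adjusted p = 0.00027), Tgfb1, whose product drives switching to IgA among many other effects, by 0.33 ± 0.08 (adjusted p = 0.0038), and Ltb, a lymphotoxin subunit, by 0.94 ± 0.36 (adjusted p = 0.0385), all on the log2 scale. The call of Ltb was lost when any of 8 libraries was left out. The survival factors Tnfsf13b (BAFF, 0.41 ± 0.28, adjusted p = 0.251) and Tnfsf13 (APRIL, -0.54 ± 0.38, adjusted p = 0.252) and the chemokine Cxcl12 (-0.12 ± 0.14, adjusted p = 0.509) did not pass. The B cell chemokine Cxcl13 had 6 counts in all, and Il6 had 3 counts in WT and 69 in KO and failed the filter.

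**Figure D5:**
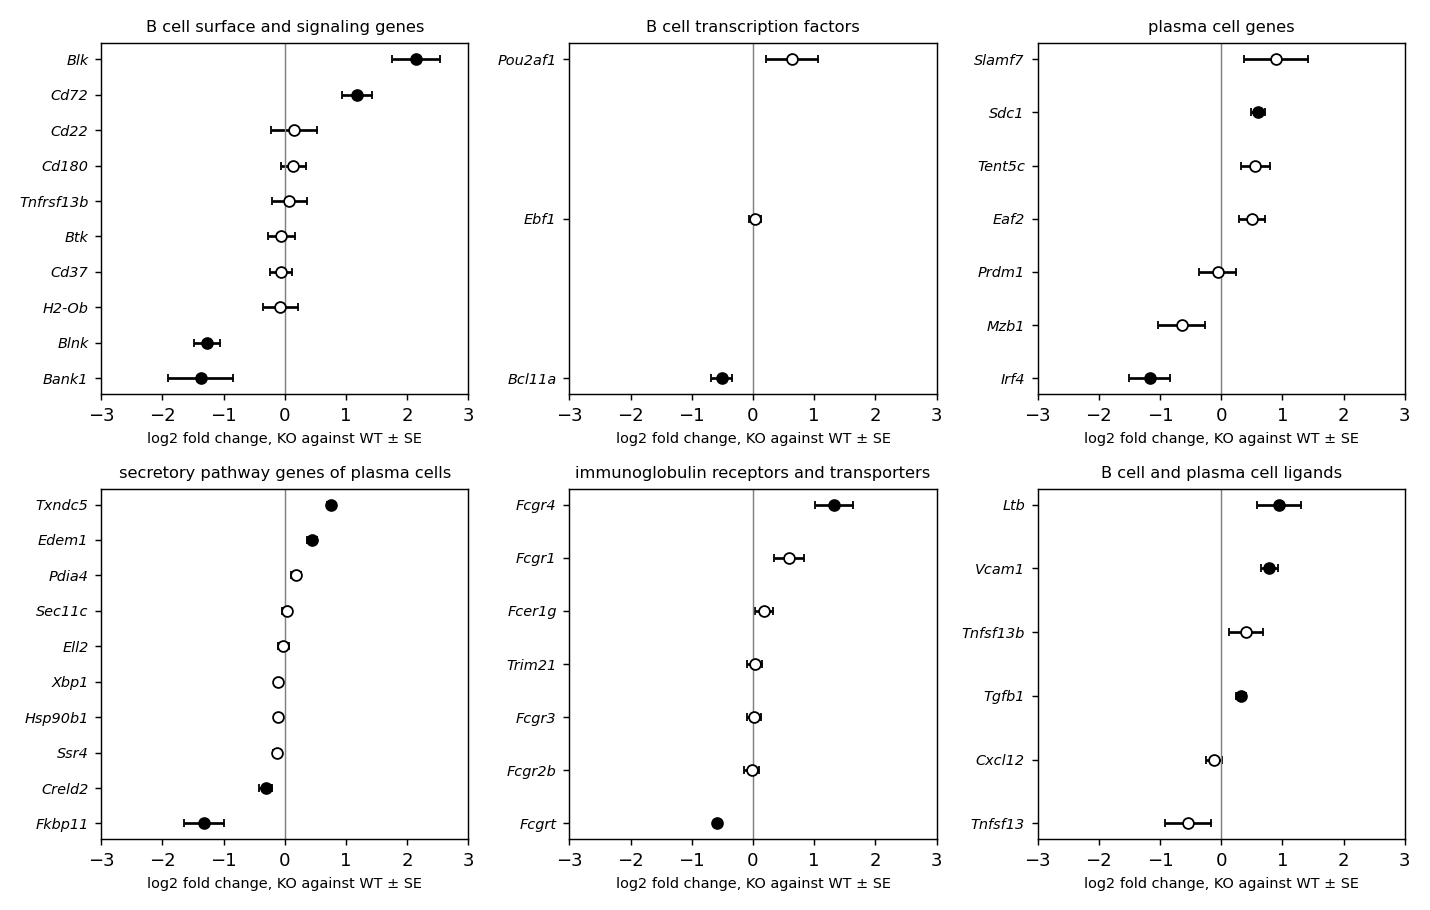
Log2 fold change of KO against WT ± SE for tested genes of 6 lists; filled points passed an adjusted p of 0.05 in edgeR's quasi-likelihood test and open points did not. Blk and Cd72 lie to the right and Blnk and Bank1 to the left in the B cell panel.

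Markers of other cell types were set beside the antibody genes, and their calls are to be read against the 25.6% of all rows that were higher and the 25.5% that were lower. Of 19 T cell markers 13 could be tested; 2 were higher, Cd8a and Lat, and 3 were lower, among them Cd247 and Cd28, and their summed level was 15.1 to 20.9 CPM in WT and 13.6 to 21.9 CPM in KO. Cd28 and Cd247 had the highest WT medians of the list, 4.73 and 4.07 CPM, and so weigh most in that sum. The number of T cell markers called higher was 4 without WT1, WT4 or WT6, 5 without KO3, and 1 without KO1, KO4, KO5 or KO6. Among markers that failed the filter, counts in WT and KO were 15 and 94 for Cd3g, 29 and 101 for Cd8b1, and 9 and 54 for Cd5. They were 26 and 76 for Zap70 and 27 and 42 for Cd3e, whereas Trbc1 had 43 and 33. Red cell markers are a measure of blood in the sample, and Hba-a1 (log2 fold change 0.22, adjusted p = 0.542) and Alas2 (0.29, adjusted p = 0.409) did not pass the test. The 4 matched red cell genes had summed levels of 293 to 1014 CPM in WT and 615 to 1228 CPM in KO. Fibroblast markers were higher in 4 of 4 (928 to 1099 CPM in WT, 1414 to 2056 CPM in KO), and 3 of 10 macrophage markers were higher and 2 were lower (272 to 377 and 292 to 408 CPM). Of 8 cardiomyocyte markers 5 were lower, among them Tnni3 (-0.89 ± 0.07, adjusted p = 2.7e-08) and Pln (-0.79 ± 0.08, adjusted p = 5.9e-07) on the log2 scale, with summed levels of 49288 to 53929 CPM in WT and 39599 to 55193 CPM in KO. Of 5 endothelial markers 3 were higher and 1 was lower (1027 to 1161 CPM in WT, 1141 to 1379 CPM in KO). The thymic epithelium markers Foxn1 and Psmb11 were at 0, and lung epithelium markers summed to at most 0.206 CPM. Their part in the levels of the antibody genes was not tested.

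Promoters of 2 of the 9 genes, Jchain and Cd79a, matched the RefSeq promoter table. On either strand the E-box CAGGTG was in both, as in 20.2% of all 32851 promoters, and the octamer ATGCAAAT, in 1.74% of all promoters, was in neither. The EBF motif CCCNNGGGA and the PU.1 motif GAGGAAGT, in 6.56% and 3.20% of all promoters, were also in neither; none of the 4 motifs contains another.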

How the data were processed

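Poly-A RNA of ventricular wall was sequenced. The authors mapped reads (the submitters' processing notes name HISAT2 2.0.5 and mm10, whereas gene identifiers are of the C57BL/6NJ assembly), counted reads per gene with HTSeq and deposited raw counts and FPKM per library. The strand setting is not stated. The table also has the authors' DESeq output for KO against WT (a log2 fold change per row, raw p-value and adjusted p-value) and, as a signal, the authors' group means of scaled counts; none of these was used.

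Gene counts went into edgeR 4.0.16 (R 4.3.3). Its filterByExpr function kept 17155 rows, TMM factors were applied, and the quasi-likelihood test compared KO with WT with Benjamini-Hochberg adjustment over all rows. Log2 CPM used a prior count of 2. Standard errors were derived from the F statistic of each row. On simulated counts for 17155 rows, 193 of 200 changed genes were recovered with 2 false calls. The simulation gave all rows the same dispersion, changed far fewer rows than were called here, and held no library that stood apart. It checks the code and does not give the power or error rate for these data. The closest replicate pair had a chi-square of 7.32 per degree of freedom, and none was merged; labels do not say whether samples are separate litters. P-values of the genotype test set the difference between groups against the spread between these samples.

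The members and lists were chosen with earlier results of these data known. The genes named are all members, list genes past the test (at most 5 per direction), those that failed the filter and defining markers; Cd22, Prdm1, Mzb1, Xbp1 and other genes not past the test were named as examples after their values were seen. Alternatives were DESeq2 1.42.0 and its size factors, library size only, no filter, a replicate block and leaving out each library. Some genes of the lists are not reported here by name.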

Additional observations from a re-analysis of the deposited data

Results flagged for a closer look

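Among 66 groups of 6 libraries, over the 9 genes, the called list genes, the shares and Sdhaf4, 7 held a library far from the others by Dixon's ratio at the 95% level, where chance gives about 3.3. Jchain was at 0.795 CPM in WT2 against 0.275 to 0.382 CPM in the other WT libraries, and Cd79a was at 1.15 CPM in KO6 against 0.364 to 0.652 CPM in the other KO libraries. Irf4 (1.13 CPM against 0.261 to 0.514) and Cd28 (4.50 CPM against 1.33 to 1.82) were both high in KO3. Lat was at 0.930 CPM in WT1 against 0.118 to 0.253 CPM, and Fcgrt was low in WT1 at 103.6 CPM against 112.1 to 116.1 CPM. Sdhaf4 was at 2.73 CPM in KO1 against 2.25 to 2.41 CPM in the other KO libraries.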

How the results depend on the processing

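The 144 member values under the alternatives each moved by less than 1 SD between replicates. Most of these values leave out 1 library, which can move a mean by only a part of that SD, so this is a weak check. The rows called in KO ranged from 4087 to 4843 higher and from 4110 to 4779 lower. The alternatives were run for 16 called genes of 5 lists (B cell surface, plasma cell, T cell, immunoglobulin receptor and ligand), which kept their direction in all 272 fits and were past the threshold in 247; called genes of the other lists were not compared across alternatives, and the 25 losses were of Bank1, Cd8a and Ltb. Without the filter on low counts, 2 plasma cell genes were lower and 4 T cell markers were higher. With DESeq2, 2 plasma cell genes were lower, 5 T cell markers were higher and 2 immunoglobulin receptors were higher. Leaving out each library in turn gave 1 to 5 T cell markers higher, 1 to 2 plasma cell genes and 1 to 2 immunoglobulin receptors higher, and 1 to 2 B cell surface genes lower. It gave r from 0.93 to 0.99 for Igha with Jchain and from 0.89 to 0.99 for Igha with Igkc in KO, from -0.87 to 0.40 for Igha with Igkc in WT, from -0.38 to 0.81 for Ighm with Cd79a in KO, and from -0.68 to 0.92 for Cd79a with Ms4a1 in KO. Reversals in sign were 0.22 without WT1 and 0.40 without WT5 for Igha with Igkc in WT, -0.38 without KO3 for Ighm with Cd79a, and 0.92 without KO6 for Cd79a with Ms4a1. Fewer libraries entered these fits, and other causes were not tested.

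Labels number the replicates 1 to 6 in both genotypes, and deviations of same-numbered samples correlated from -0.16 to 0.02. Samples of unlike number were not compared, so this cannot decide whether equal numbers mark paired samples. A fit with the replicate number as a block called 8233 rows against 8767, with 2 plasma cell genes and 2 immunoglobulin receptors higher. Depth limits Ms4a1, Ighd, Cd79a and Cd79b, at 1 to 57 counts per library, and Jchain and Ighg2c in WT, at 7 to 22 and 2 to 26.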
